A study of Homo sapiens with 34 samples.

Results

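The glutathione, NRF2 and antioxidant genes were followed in B-cell acute lymphoblastic leukaemia (B-ALL) cells in which cyclin D3 was depleted or its kinase partners were inhibited. The 35 genes were taken by name: NFE2L2 and KEAP1, quinone reductases and heme oxygenases, enzymes that make, use and reduce glutathione, superoxide dismutases and catalase, the thioredoxin inhibitor TXNIP, NADPH-supplying enzymes, the ferritin chains, glutaredoxins, and OXSR1, PARK7 and MSRA. They are 35 of the 17587 genes listed in at least 1 of the 6 deposited tables. The rule names genes by function and uses no measured value, although it was written with earlier results of these data known.

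The 34 poly(A) RNA-seq samples came from 3 established lines, all grown in RPMI1640 with serum, glutamine and antibiotics. By their labels, BV-173 carries BCR-ABL, NALM-6 carries ETV6-PDGFRB and RS4;11 carries MLL-AF4. In the knockdown arm, cells carried a lentiviral vector with either a scrambled shRNA or an shRNA against CCND3 and were sorted 4 days after transduction, so control and knockdown cells both carry a vector. In the drug arm, cells received 1 µM palbociclib, an inhibitor of the kinases CDK4 and CDK6, or DMSO, and were collected after 3 days. Of the 12 groups, 10 hold 3 samples and 2 hold 2 samples (NALM-6 with CCND3 shRNA and BV-173 with DMSO). Each line is a single culture-adapted tumour line, and the knockdown rests on a single hairpin and the drug arm on a single dose and time.

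Cells keep reactive oxygen species in check through glutathione, a tripeptide built from cysteine, glutamate and glycine, and through thioredoxin. NFE2L2 encodes NRF2, the transcription factor that switches on many of these enzymes; KEAP1 holds NRF2 in the cytoplasm and presents it for degradation until oxidants or electrophiles modify KEAP1. NRF2 binds with small MAF proteins to the antioxidant response element. Glutamate-cysteine ligase, made of the catalytic subunit GCLC and the modifier subunit GCLM, carries out the rate-limiting step of glutathione synthesis. Glutathione peroxidases then spend glutathione on peroxides, and glutathione reductase (GSR) restores it with NADPH.

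The core of the antioxidant response element, TGACNNNGC, was searched on both strands in the promoter windows of RefSeq (GRCh38.p14), from 250 bases before to 50 bases after each transcript start. A window was found for 28 of the 35 genes, and 7 of these (25%) held at least 1 match: GCLM, GSTO1, GSTP1, IDH1, KEAP1, ME1 and PARK7. Among all 27305 genes with a window the share was 16.1%. The matches of GCLM and GSTO1, whose RNA fell with palbociclib, and of GSTP1 and KEAP1, whose RNA did not pass the test, are shown, all matches of each, on the strand of the gene, 5′ to 3′, with the match in capitals.
GCLM, chr1:93909444-93909476, minus strand: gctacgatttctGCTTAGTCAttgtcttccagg
GSTO1, chr10:104254654-104254686, plus strand: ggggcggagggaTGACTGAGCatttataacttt
GSTO1, chr10:104254719-104254751, plus strand: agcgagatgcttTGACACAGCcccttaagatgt
GSTP1, chr11:67583734-67583766, plus strand: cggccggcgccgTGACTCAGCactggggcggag
KEAP1, chr19:10502805-10502837, minus strand: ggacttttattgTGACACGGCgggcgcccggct
KEAP1, chr19:10502782-10502814, minus strand: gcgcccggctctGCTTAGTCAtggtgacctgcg
The GCLM match lies on the opposite strand and starts 34 bases upstream of the transcript start, the GSTP1 match 66 bases upstream, and the 2 GSTO1 matches 226 and 161 bases upstream. The 2 KEAP1 matches start 54 and 31 bases upstream, the latter on the opposite strand, and the stretches printed for them overlap. For GSTO1 and KEAP1 these distances are to a transcript start inside the gene. GSTO1 spans 104254173 to 104267455 and KEAP1 10486125 to 10503356, so their matches lie within the genes. The GCLM and GSTP1 matches lie outside theirs. A match of these letters describes the window only and is not evidence of binding.

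Each table gives 1 level per group for the 2 groups of a comparison, on the authors' normalised scale and not divided by gene length. The samples behind a group value were not analysed here one by one and the authors' p-values were not used, so no error within a line is given. The column totals ran from 1.781e+07 to 2.076e+07, and the read depth is unknown. A comparison within a line is therefore given as the log2 of (treated level + 1) over (control level + 1), with no test, and described as past 1.5-fold or not. Across lines, limma tested the mean log2 ratio over the 3 lines, with the cell line as the replicate and Benjamini-Hochberg adjustment over 11800 genes, and a gene is said to have risen or fallen where the adjusted p was under 0.1. Levels are given in the order NALM-6, RS4;11, BV-173.

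CCND3 itself was at 19498, 16178 and 6619 with scrambled shRNA and at 4727, 3353 and 2060 with CCND3 shRNA, which left 24.2%, 20.7% and 31.1% of the control level. With palbociclib its mean log2 ratio was -0.35 (limma adjusted p = 0.0793). The 7 B-cell precursor markers read (CD79A, CD79B, PAX5, EBF1, VPREB1, DNTT and RAG1) were listed in every group, with summed levels of 30030 to 88920. The 4 T-cell markers summed to at most 7.70 and the 4 erythroid markers to at most 4.87. The 4 myeloid markers summed to 88.4 to 559.6, mostly CSF1R in RS4;11 and BV-173. CSF1R stood at 145 with DMSO and 513 with palbociclib in BV-173, and its part in the results for that line was not tested. Each value comes from a bulk culture, so fewer cells with a transcript and less of it per cell cannot be told apart.

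After CCND3 knockdown, catalase (CAT) and glutathione peroxidase 1 (GPX1) rose and GCLM fell, and no other of the 31 genes tested passed the threshold. All 3 calls were lost without limma's trend on level and at an adjusted p under 0.05, and that of GCLM also without the filter on level. Of all 11800 genes, 142 passed without the trend and 1 at an adjusted p under 0.05, so the loss is not particular to these 3. With palbociclib, the same 3 genes moved the same way and 12 more passed: FTL, GSTK1, HMOX2, MSRA and TXNIP rose, and FTH1, GLRX2, GSR, GSTO1, IDH2, NFE2L2 and NQO1 fell. The mean changes were between 0.40 and 0.96 on the log2 scale in either direction. The 3 of 31 called after knockdown (9.68%) stand beside 6.07% of all genes tested, and the 15 of 31 called with palbociclib (48.4%) beside 39.4%. The shares of the antioxidant genes were thus not far from those of all genes, and the group as a whole moved in no single direction, with medians over the 31 genes of -0.02 after knockdown and -0.03 with palbociclib against 0.00 and 0.01 over all genes. Of the 31 genes, 9 had the same sign in all 6 comparisons (29%), against 32.3% of 10402 genes overall. Those 9 were CAT, FTL, GPX1, GSTK1, HMOX2 and TXNIP, higher throughout, and FTH1, GCLM and GLRX2, lower throughout.

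**Figure D1:**
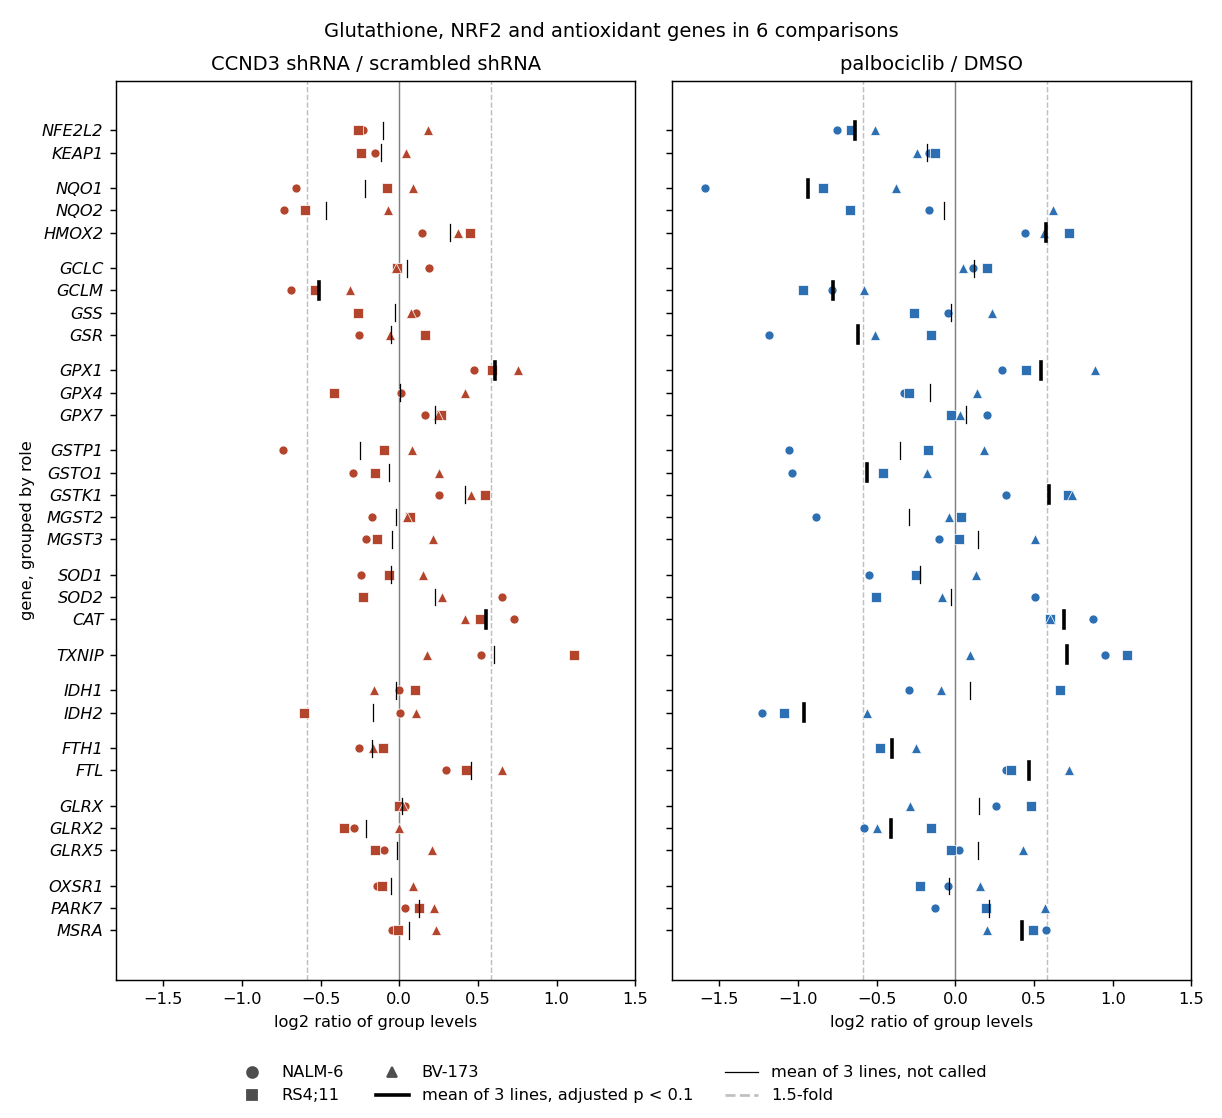
Log2 ratio of treated over control level (x axis) for the 31 tested genes, grouped by role, after CCND3 knockdown (left) and with palbociclib (right); symbols are the 3 lines, the vertical ticks their mean (thick where limma's adjusted p was under 0.1) and the dashed lines 1.5-fold. CAT, GPX1 and GCLM carry a thick tick on both sides, and the means of NQO1, IDH2 and NFE2L2 lie well to the left of 0 only on the right. Among the symbols on the left, NQO1 in NALM-6 and IDH2 in RS4;11 also lie lower than the 1.5-fold line.

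Within single lines, 6 of 31 antioxidant genes were past 1.5-fold after knockdown in NALM-6 (18.6% of all genes were), 5 of 33 in RS4;11 (21.3%) and 2 of 31 in BV-173 (9.22%). With palbociclib the counts were 10 of 31 in NALM-6 (36.1%), 11 of 33 in RS4;11 (32.7%) and 5 of 31 in BV-173 (28.6%). In NALM-6 with palbociclib 8 of the 10 were lower, in RS4;11 6 were higher and 5 lower, and in BV-173 all 5 were higher. Past 1.5-fold the same way in all 3 lines was CAT with palbociclib, and no gene of the group after knockdown. Over all genes that share was 11.8% with palbociclib and 2.93% after knockdown.

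Of the regulators, NFE2L2 fell with palbociclib and KEAP1 did not pass the test with either treatment. NFE2L2 (chromosome 2, 177230303 to 177264727, GRCh38.p14) was at 1765, 1660 and 2763 with DMSO and at 1049, 1049 and 1938 with palbociclib, a mean log2 ratio of -0.64 (95% interval -0.92 to -0.36, limma adjusted p = 0.0076). All 3 lines were lower with the drug, by -0.75, -0.66 and -0.51. After knockdown it was at 1496, 1174 and 3008 against 1753, 1409 and 2652 with scrambled shRNA, lower in 2 lines and higher in BV-173 (mean -0.10, adjusted p = 0.678). KEAP1 ratios lay between -0.25 and 0.04 in the 6 comparisons.

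NQO1, a quinone reductase and a textbook NRF2 target, differed between lines more than most genes of the group. In BV-173 its control level was 3074 with scrambled shRNA and 1688 with DMSO, against 154 and 142 in NALM-6, 20.0-fold and 11.9-fold more (the tables were scaled separately). Palbociclib brought NQO1 from 142, 284 and 1688 to 46.5, 158 and 1296. It fell, with a mean of -0.94 (-1.48 to -0.39, limma adjusted p = 0.0221), and the ratios ran from -1.59 in NALM-6 to -0.38 in BV-173. After knockdown NQO1 stood at 97.1, 210 and 3272 against 154, 222 and 3074, and only the NALM-6 ratio (-0.66) was past 1.5-fold.

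NQO2, its paralogue that uses other electron donors, did not pass the test with either treatment. After knockdown it was at 71.8, 235 and 45.1 against 120, 356 and 47.4, past 1.5-fold in NALM-6 and RS4;11. With palbociclib the ratios of NQO2 were -0.17, -0.67 and 0.62, so RS4;11 and BV-173 went opposite ways.

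The heme oxygenases break down heme to biliverdin, carbon monoxide and iron. HMOX2, the constitutive form, rose with palbociclib, from 632, 792 and 671 to 858, 1308 and 994 (mean 0.58, 0.31 to 0.84, limma adjusted p = 0.0103). All 3 lines were higher after knockdown as well, at 745, 863 and 968 against 675, 633 and 746, but the mean of 0.32 did not pass (adjusted p = 0.172). HMOX1, the inducible form and another NRF2 target, reached a mean level of 10 in RS4;11 only. There it was at 63.6 with scrambled and 152 with CCND3 shRNA, and at 55.5 with DMSO and 104 with palbociclib, log2 ratios of 1.24 and 0.89 that no other line could be set beside.

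The modifier subunit of the rate-limiting enzyme of glutathione synthesis fell with both treatments, while the catalytic subunit did not pass with either. GCLM (chromosome 1, 93885199 to 93909430) was at 807, 793 and 1157 with scrambled shRNA and at 501, 547 and 932 with CCND3 shRNA. With DMSO it was at 735, 934 and 934 and with palbociclib at 426, 477 and 625. The mean log2 ratio was -0.51 after knockdown (-0.81 to -0.22, limma adjusted p = 0.0889) and -0.78 with palbociclib (-1.07 to -0.48, adjusted p = 0.00481). Every treated group lay under its own control, and all 3 palbociclib groups lay under all 3 DMSO groups.

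GCLC ratios lay between -0.02 and 0.20. Per kilobase of gene length, the level of GCLM over that of GCLC was 1.08, 1.34 and 0.65 with scrambled and 0.59, 0.94 and 0.54 with CCND3 shRNA. It was 1.03, 1.57 and 0.65 with DMSO and 0.56, 0.70 and 0.42 with palbociclib. The ratio of the 2 subunit transcripts was thus lower in each of the 6 treated groups than in its control.

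GSS, glutathione synthetase, which adds the last amino acid, lay between -0.26 and 0.23 and passed neither test. GSR fell with palbociclib, from 3012, 1778 and 1181 to 1323, 1596 and 827. Its mean was -0.62 (-1.05 to -0.18, limma adjusted p = 0.0422), with NALM-6 at -1.19 and RS4;11 at only -0.16. After knockdown GSR ratios ran from -0.26 to 0.16.

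GPX1, the abundant cytosolic glutathione peroxidase, rose with both treatments. Its level (chromosome 3, 49357176 to 49358353) was 2722, 7280 and 9308 with scrambled shRNA and 3785, 10973 and 15677 with CCND3 shRNA, a mean of 0.61 (0.30 to 0.92, limma adjusted p = 0.0736). With DMSO it was 3127, 6627 and 7404 and with palbociclib 3832, 9062 and 13692, a mean of 0.54 (0.23 to 0.85, adjusted p = 0.0209). In both arms the BV-173 ratio was the highest (0.75 and 0.89) and the NALM-6 ratio the lowest (0.48 and 0.29).

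GPX4, which reduces lipid peroxides in membranes and guards against ferroptosis, passed neither test, with ratios of 0.01, -0.42 and 0.41 after knockdown and -0.33, -0.29 and 0.14 with palbociclib. GPX7, a peroxidase of the endoplasmic reticulum, lay between -0.03 and 0.26. GPX8 was listed in all 6 tables at levels under 3 and was not tested.

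Of the 5 glutathione transferases, which couple glutathione to electrophiles, GSTK1 rose and GSTO1 fell with palbociclib, and none passed after knockdown. GSTK1, a mitochondrial and peroxisomal form, went from 566, 1625 and 574 to 707, 2665 and 960 with the drug (mean 0.59, 0.31 to 0.88, limma adjusted p = 0.0116). After knockdown it was at 657, 2462 and 860 against 552, 1685 and 627, higher in each line (mean 0.42, adjusted p = 0.118).

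GSTO1, of the omega class, went from 1584, 1496 and 1026 to 770, 1089 and 905 with palbociclib (mean -0.56, -0.97 to -0.14, limma adjusted p = 0.0505). Its ratios were -1.04, -0.46 and -0.18, so NALM-6 carried most of the change. GSTP1 and MGST2 were past 1.5-fold in NALM-6 alone, where palbociclib left GSTP1 at 927 of 1933 and MGST2 at 69.0 of 128, and knockdown left GSTP1 at 1195 of 1994. MGST3 ratios lay between -0.21 and 0.51.

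CAT, the peroxisomal enzyme that turns hydrogen peroxide into water and oxygen, rose with both treatments and had the lowest knockdown p of the group. CAT (chromosome 11, 34438934 to 34472060) was at 2914, 2494 and 1851 with scrambled shRNA and at 4836, 3556 and 2469 with CCND3 shRNA (mean 0.55, 0.30 to 0.81, limma adjusted p = 0.0654). With DMSO it was at 3445, 2483 and 1902 and with palbociclib at 6327, 3766 and 2881 (mean 0.69, 0.44 to 0.95, adjusted p = 0.00424). Each treated group lay above its own control, and NALM-6 had the highest level and the largest ratio in both arms.

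The superoxide dismutases, which make the hydrogen peroxide that catalase removes, passed neither test. SOD1, the cytosolic form, lay between -0.55 and 0.15. Mitochondrial SOD2 had ratios of 0.65, -0.23 and 0.27 after knockdown and 0.51, -0.50 and -0.09 with palbociclib, and was past 1.5-fold only after knockdown in NALM-6, at 5384 against 3428. SRXN1, sulfiredoxin, which repairs over-oxidised peroxiredoxins, reached the level of 10 in RS4;11 only, at 292 against 382 after knockdown and 354 against 433 with palbociclib.

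TXNIP binds and inhibits thioredoxin and also limits glucose uptake. With palbociclib it rose, from 1037, 862 and 1510 to 2001, 1839 and 1607 (mean 0.71, 0.18 to 1.24, limma adjusted p = 0.0517). The change sat in NALM-6 and RS4;11 (0.95 and 1.09), while BV-173 was at 0.09. Knockdown gave the same order of ratios, 0.52, 1.11 and 0.18, from 1753, 1064 and 978 to 2508, 2293 and 1105, and the mean of 0.60 did not pass (adjusted p = 0.193). With 1 line left out, the knockdown mean of TXNIP ran from 0.35 to 0.81, and the limma adjusted p from 0.0848 to 0.696. It passed only without BV-173, the line with the smallest ratio. Leaving out that line raises the mean by construction, so this pass adds no support. ARRDC4, the arrestin-domain relative of TXNIP that responds to the same glucose-sensing factor, rose with both treatments, with means of 1.03 (adjusted p = 0.0870) and 1.21 (adjusted p = 0.0112). Its levels were 163, 90.8 and 12.5 with scrambled and 370, 234 and 18.7 with CCND3 shRNA, and 45.9, 58.4 and 14.96 with DMSO and 155, 143 and 23.7 with palbociclib.

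**Figure D2:**
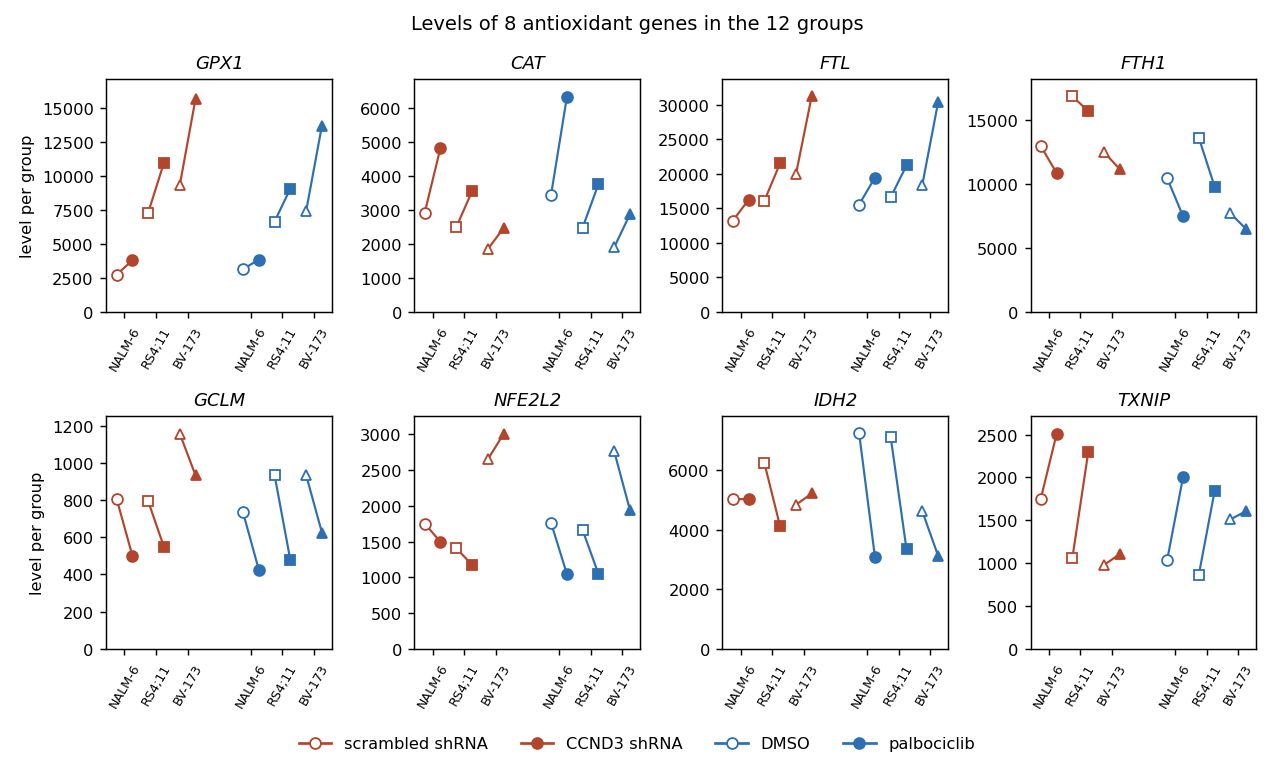
Level per group on the deposited scale (y axes from 0, 1 value per group with no error available) for 8 antioxidant genes, with open symbols for controls and filled symbols for treated groups, CCND3 knockdown in red and palbociclib in blue. GPX1, CAT, FTL and TXNIP go up along every line and GCLM and FTH1 down along every line, whereas NFE2L2 and IDH2 go down in all 3 lines only with palbociclib.

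IDH2, the mitochondrial isocitrate dehydrogenase that makes NADPH, had the largest mean log2 ratio of the 31 tested genes in either arm. It went from 7239, 7099 and 4611 with DMSO to 3085, 3342 and 3124 with palbociclib (chromosome 15, 90083045 to 90102468). It fell by 0.96 on the log2 scale (interval -1.37 to -0.55, limma adjusted p = 0.00717), and the 3 drug-treated levels lay close together, under all 3 DMSO levels. After knockdown only RS4;11 was lower, at 4107 against 6237 (-0.60), while NALM-6 and BV-173 were at 0.00 and 0.11.

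IDH1, the cytosolic form, went the other way in RS4;11 with palbociclib, at 1927 against 1218 (0.66), and was at -0.30 and -0.09 in NALM-6 and BV-173. ME1, a cytosolic malic enzyme that also yields NADPH, was listed in 1 table at levels under 1.

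The ferritin chains, which store iron and so keep it from generating radicals, moved apart. FTL, the light chain, was at 13178, 16051 and 19889 with scrambled and 16193, 21519 and 31235 with CCND3 shRNA, and at 15517, 16589 and 18386 with DMSO and 19422, 21182 and 30320 with palbociclib. It rose with palbociclib (mean 0.47, 0.16 to 0.77, limma adjusted p = 0.0334) and was at 0.46 after knockdown (adjusted p = 0.113). FTH1, the heavy chain with the ferroxidase site, was at 10825, 15669 and 11117 after knockdown against 12928, 16803 and 12462, and at 7467, 9765 and 6449 with palbociclib against 10420, 13593 and 7680. It fell with palbociclib (mean -0.40, -0.64 to -0.16, adjusted p = 0.0241) and was at -0.17 after knockdown (adjusted p = 0.384).

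Per kilobase, FTL exceeded FTH1 1.43, 1.34 and 2.23 times with scrambled and 2.10, 1.92 and 3.94 times with CCND3 shRNA. With DMSO the ratio was 2.09, 1.71 and 3.35 and with palbociclib 3.64, 3.04 and 6.58. The ratio was higher in each of the 6 treated groups than in its control, by 1.44 to 1.96 times. That direction follows from FTL being higher and FTH1 lower in all 6 comparisons, and is not a separate result. On the per-kilobase scale FTL was the highest of the group in all 6 control columns. Both ferritin genes have processed copies in the genome, so reads shared with such copies make their levels less certain than those of the other genes.

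Of the glutaredoxins, which use glutathione to reduce mixed disulfides, mitochondrial GLRX2 fell with palbociclib, from 109, 177 and 196 to 72.4, 158 and 139 (mean -0.41, -0.79 to -0.04, limma adjusted p = 0.0914). The GLRX2 call was lost without the filter on level, with each treatment fitted alone and with any line left out. GLRX, the cytosolic relative of GLRX2, and GLRX5, needed for iron-sulfur cluster assembly, passed neither test. MSRA, which repairs oxidised methionine, rose with palbociclib from 177, 239 and 162 to 265, 336 and 186 (mean 0.42, 0.08 to 0.76, adjusted p = 0.0670) and was at 0.06 after knockdown. PARK7, an oxidation-sensing protein, and the stress kinase OXSR1 passed neither test, with ratios between -0.22 and 0.57.

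The 16 tested genes that passed with neither treatment had mean log2 ratios of -0.47 to 0.23 after knockdown and -0.35 to 0.21 with palbociclib. They include the peroxidases GPX4 and GPX7, both superoxide dismutases, GCLC and GSS. A p above the threshold with 3 lines does not show that their levels were the same.

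Beside this group, 54 other genes of the pathway were read, of which 47 could be tested. After knockdown ARRDC4 alone passed, 1 of 47 (2.13%, against 6.07% of all genes). With palbociclib 18 of 47 passed (38.3%, against 39.4% of all genes), 8 up and 10 down. None of the 8 NRF2 regulators and partners (BACH1, BACH2, CUL3, SQSTM1, MAFF, MAFG, MAFK and NFE2L1) passed with either treatment. Of the 11 genes of cystine import and glutathione turnover, 6 fell and 3 rose with palbociclib.

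SLC7A11, the cystine-glutamate exchanger that supplies cysteine for glutathione, had the largest change of these. It was at 416, 628 and 980 with DMSO and at 100, 26.9 and 257 with palbociclib, which left 24.1%, 4.28% and 26.2% (mean -2.82, limma adjusted p = 0.00549). After knockdown it was at 268, 225 and 883 against 596, 544 and 949, lower in NALM-6 and RS4;11 and close to control in BV-173 (mean -0.84, adjusted p = 0.363). SLC3A2, the heavy chain that carries this exchanger to the membrane, went from 3662, 3721 and 7175 to 1855, 1704 and 3881 with palbociclib (mean -0.998, adjusted p = 0.00995).

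Of those 11 genes, the 6 that fell with palbociclib were SLC7A11, SLC3A2, CHAC1, CHAC2, GGCT and GLO1, and the 3 that rose were OPLAH, ABCC1 and the dipeptidase CNDP2 (mean 0.36, limma adjusted p = 0.0962). CHAC1, a stress-induced gamma-glutamylcyclotransferase that splits glutathione, went from 369, 689 and 1009 to 232, 34.8 and 262 with palbociclib (mean -2.29, adjusted p = 0.0206), and its relative CHAC2 from 167, 212 and 288 to 81.9, 60.2 and 166 (mean -1.20, adjusted p = 0.0105). OPLAH, which opens the 5-oxoproline ring at the end of this cycle, rose (mean 1.06, adjusted p = 0.0246), from 46.8 to 104 in NALM-6 and from 251 to 758 in RS4;11, with levels under 3 in BV-173. The mean and its p include the BV-173 ratio of 0.44, which cannot be read at such levels.

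**Figure D3:**
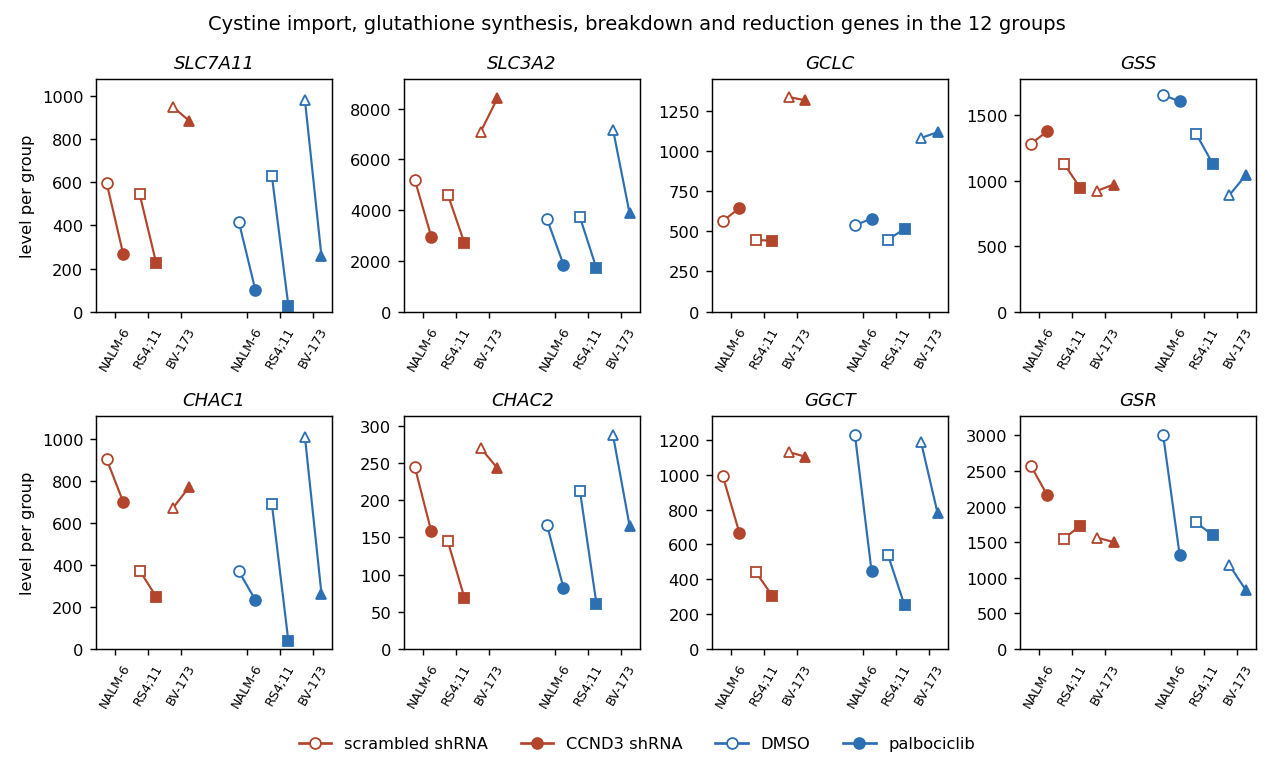
Level per group (y axes from 0, 1 value per group with no error available) of genes for cystine import (SLC7A11, SLC3A2), glutathione synthesis (GCLC, GSS), breakdown (CHAC1, CHAC2, GGCT) and reduction (GSR), with open symbols for controls and filled symbols for treated groups, knockdown in red and palbociclib in blue. With palbociclib SLC7A11, SLC3A2, CHAC1, CHAC2 and GGCT go down in all 3 lines, and after knockdown the BV-173 symbols stay near or above their controls.

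Among the other enzymes, CBR3, a carbonyl reductase, went from 40.8, 257 and 48.2 to 7.11, 67.2 and 12.5 with palbociclib (mean -2.05, limma adjusted p = 0.00203). The copper chaperone of SOD1, CCS, went from 354, 215 and 189 to 873, 443 and 323 (mean 1.04, adjusted p = 0.00407), while SOD1 itself passed neither test. After knockdown CBR3 had a mean of -0.85 (adjusted p = 0.118) and CCS of 0.54 (adjusted p = 0.119). Of the 7 further glutathione transferases tested 2 rose and 1 fell with palbociclib, and of the 6 genes tested for repair of oxidised residues 2 rose and 1 fell. Of the 5 iron-handling genes tested none passed. Among all genes 39.4% passed with palbociclib.

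Whether knockdown and palbociclib acted unequally was tested as the difference of the mean log2 ratios, and the controls of the arms are separate samples. No gene passed, that is 0% of 11800 and 0 of 31 antioxidant genes by limma, with 1605 genes and 2 antioxidant genes under an unadjusted p of 0.05. CCND3 itself did not pass this test (difference -1.65, adjusted p = 0.134). With the cell line as a block, so that the arms were compared within each line, 1303 genes passed (11%), 5 of them antioxidant genes that were lower with palbociclib: NQO1 (difference 0.72, adjusted p = 0.0459), IDH2 (0.80, adjusted p = 0.0511), NFE2L2 (0.54, adjusted p = 0.0581), GSR (0.57, adjusted p = 0.0863) and GSTO1 (0.49, adjusted p = 0.0930). Those called after knockdown did not differ detectably between arms in either fit. For CAT the difference was -0.14 (95% interval -0.50 to 0.22), for GPX1 0.06 (-0.38 to 0.50) and for GCLM 0.27 (-0.15 to 0.68).

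**Figure D4:**
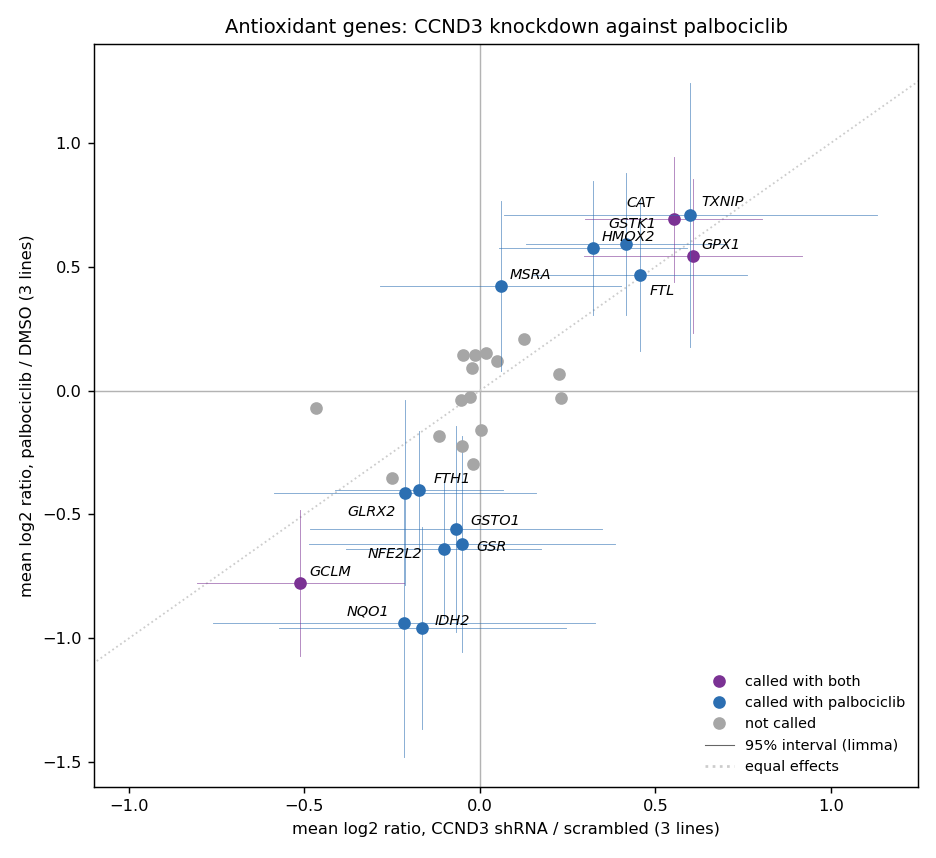
Mean log2 ratio over the 3 lines after CCND3 knockdown (x axis) and with palbociclib (y axis) for the 31 tested genes, with limma's 95% intervals for the 15 called genes and a dotted line of equal effects. CAT, GPX1 and GCLM, called with both, lie near the dotted line, and NQO1, IDH2, NFE2L2, GSR and GSTO1 lie under it, at knockdown means of -0.22 to -0.05.

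With 1 line left out, the knockdown means of the called genes stayed within 0.46 to 0.62 for CAT, 0.53 to 0.67 for GPX1 and -0.61 to -0.42 for GCLM. Without NALM-6 or without RS4;11 none of the 11800 genes passed after knockdown, so the loss of these calls is not particular to them. Without BV-173 CAT, GPX1, GCLM and TXNIP passed, beside 7.31% of all genes. BV-173 also had the shortest list within a line after knockdown, and 24 of its 31 ratios were above 0, against 14 of 31 in NALM-6 and 12 of 33 in RS4;11. With palbociclib 9 of 31 passed without NALM-6 (23.8% of all genes did), 5 without RS4;11 (19.2%) and 14 without BV-173 (33.3%), and CAT, GCLM, IDH2 and NFE2L2 passed in each of these 3 fits.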

How the data were processed

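Total RNA was enriched for poly(A) RNA, and per the study's methods and the submitters' processing notes the authors aligned reads to hg38 with Bowtie2, estimated expression with RSEM and compared groups with DESeq2. Each of the 6 deposited tables holds 1 normalised expression signal per group for a control and a treated group, pooled over 2 or 3 samples by the authors. Values of single samples were not analysed here. The tables also hold the authors' fold changes and p-values, which were not used.

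Genes were compared as log2((treated + 1) / (control + 1)) where the mean level of the pair was at least 10. The limma model (limma 3.58.1, R 4.3.3, trend on level) had 1 mean per treatment over the 6 ratios, on genes listed in all 6 tables with a mean level of at least 10, with Benjamini-Hochberg adjustment and a threshold of 0.1. The cell line is the replicate, so p-values measure the spread between 3 lines, and no error between samples of a line enters. Ratios, ranks and sequence matches used Python 3.11.15, pandas 2.3.3 and numpy 2.4.6. The fit was tested on simulated data with independent errors for the 6 ratios. A spread shared by the arms of a line was not simulated.

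Levels are given for each gene called with either treatment or past 1.5-fold the same way in all 3 lines, and single values for genes past 1.5-fold in 1 line. Of the other pathway genes, the 8 with the largest mean absolute log2 ratio among those called are given with levels. Also named are the remaining called genes of cystine import and glutathione turnover, the NRF2 regulators and partners, and TFRC. The genes and lists were chosen with earlier results of these data known. Alternatives covered the pseudocount, level filter, scaling, threshold, fold, trend, cell line left out, cell line as a block and separate fits. Promoter windows came from RefSeq. Of the marker lists, 1 gene is not reported here.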

Additional observations from a re-analysis of the deposited data

Results flagged for a closer look

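NQO2, a quinone reductase, went opposite ways with palbociclib in RS4;11 and BV-173. Its log2 ratio was -0.67 in RS4;11, where the level went from 438 to 275, and 0.62 in BV-173, where it went from 36.6 to 56.9. Each table holds 1 value per group, so the difference between the lines was not tested.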

How the results depend on the processing

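For single samples, no paired analysis was possible because the deposited columns hold 1 value per group and carry no replicate number. The arms could be paired by cell line, which is the fit with the cell line as a block. Over all genes, the calls of a difference between the arms went from 0 to 1303 in that fit. After knockdown, the 3 antioxidant genes called became 0 at an adjusted p under 0.05, 0 without the trend on level, 0 without NALM-6, 0 without RS4;11 and 6 with each treatment fitted alone (CAT, FTL, GCLM, GPX1, GSTK1 and TXNIP). Without a level filter GCLM was not called, and with a mean level of at least 100 FTL was added. With palbociclib, the 15 became 9 with each treatment fitted alone, 9 without NALM-6 and 5 without RS4;11, and 11 at an adjusted p under 0.05, while the calls over all genes went from 4653 to 3156, 2805, 2270 and 3445. The palbociclib calls lost with each treatment fitted alone were FTH1, FTL, GLRX2, GSR, GSTO1 and MSRA. The difference between the arms went from 0 to 5 genes with the cell line as a block. The knockdown calls over all genes went from 716 to 1641 with each treatment fitted alone, to 142 without the trend on level and to 0 without NALM-6 or without RS4;11. At an adjusted p under 0.05 they went to 1.

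At a fold of 2 instead of 1.5, the genes past it after knockdown were 0, 2 and 0 (NALM-6, then RS4;11, then BV-173) and with palbociclib 5, 2 and 0. At the lower fold tried, 0.32 on the log2 scale, they were 13 and 6 after knockdown in RS4;11 and BV-173 and 18, 18 and 15 with palbociclib. In NALM-6 after knockdown, only GPX1 and TXNIP joined the genes past 1.5-fold. The same way in all 3 lines were 2 after knockdown and 7 with palbociclib at this lower fold and 0 with palbociclib at a fold of 2, and in at least 2 lines at 1.5-fold 2 and 7. The share of all genes was not computed for these other folds or for at least 2 lines. These counts therefore show the effect of the setting only and cannot be set beside all genes. Pseudocounts of 0 and 10 and centring on the median of all genes changed no count of calls by over 1.5 times. No mean log2 ratio of a called gene changed sign. Of 930 values of single genes under an alternative, 846 kept both their direction and their side of the threshold. Of 75 counts of genes under an alternative, 50 stayed within 1.5 times.

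The levels give no depth, and ratios of low genes are small: their SD was 0.0885 to 0.311 in the lowest 10% of genes by level against 0.441 to 1.11 in the fourth such bin, so folds of low genes such as HMOX1 outside RS4;11 or GPX8 cannot be read. A change in total RNA per cell would not show on this scale.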

Other observations

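TFRC, the transferrin receptor that brings iron into the cell, was singled out among the iron-handling genes after its values were seen. It was at 6993, 4210 and 1915 with scrambled shRNA and at 4695, 2596 and 1279 with CCND3 shRNA (NALM-6 first, then RS4;11, then BV-173), a mean log2 ratio of -0.62 that missed the threshold (limma adjusted p = 0.108). With palbociclib it was at 4955, 3704 and 1708 against 4719, 4012 and 956 with DMSO, a mean of 0.26 (adjusted p = 0.28). The difference between the arms was -0.88, with an adjusted p of 0.263.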
